A study of Rattus norvegicus with 9 samples.

Results

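Peroxisome genes were taken from the KEGG annotation of the deposited gene table. Each gene carrying the peroxisome entry was kept, except catalase (Cat) and the genes whose symbols start with Acsl, Slc27a, Sod or Prdx. Of 80 genes with the entry, 10 were excluded in this way and 70 remained, out of 20645 genes in the table. RNA-seq had been performed on 9 libraries of INS-1E, an insulin-secreting beta cell line derived from a rat insulinoma. The BSA group (3 libraries) received fatty acid-free bovine serum albumin, the carrier of fatty acids. The PA group (3 libraries) received 0.5 mM palmitic acid, and the PA + C3G group (3 libraries) received 0.5 mM palmitic acid together with 50 µM cyanidin-3-O-glucoside, an anthocyanin. All groups were treated for 24 h, the doses are those of the study's methods, and the labels name no genetic change in this single cell line. The study's methods speak of 3 replicate samples per group for sequencing and of biological triplicates for its experiments in general, while the labels give only replicate numbers, so p-values measure the spread between these samples.

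The peroxisome is an organelle with a single membrane that shortens very long and branched fatty acids, forms ether lipids and produces and destroys hydrogen peroxide. Its enzymes are made in the cytosol and carried across the membrane by peroxins, the products of the Pex genes, and long fatty acids enter through ABC transporters. Unlike mitochondrial β-oxidation, the first step of the peroxisomal pathway passes electrons to oxygen and releases hydrogen peroxide. Beta cells are known for low levels of catalase, the enzyme that removes it. Many peroxisomal enzymes of the liver are targets of PPARα, a nuclear receptor activated by fatty acids.

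Library totals ran from 45559993 to 66730721 estimated counts, of which 0.198% to 0.239% belonged to the peroxisome genes. All 12 beta cell markers examined passed the expression filter (a mean of at least 1 FPKM over the 9 libraries, FPKM being fragment counts scaled to gene length and library size). Their summed level was 50266 to 51005 FPKM in BSA, 23267 to 23750 FPKM in PA and 47816 to 53416 FPKM in PA + C3G, most of it from the insulin genes Ins1 and Ins2. In PA against BSA 9 of the 12 were lower and 0 higher, where 25.2% of all genes that passed the filter were lower and 25.8% higher. In PA + C3G against PA 10 were higher and 0 lower (11.1% and 10.2% of all). In PA + C3G against BSA 4 were lower and 4 higher (17.9% and 19.0% of all). Slc2a2, the glucose transporter, was among the lower in both comparisons against BSA. It measured 509.7 ± 18.4 FPKM in BSA, 103 ± 3.97 FPKM in PA and 172 ± 5.63 FPKM in PA + C3G. Of 7 markers of non-endocrine cells in the table, 6 lay under the filter, and their sum was 3.18 to 3.21 FPKM in BSA, 5.13 to 6.49 FPKM in PA and 3.44 to 4.72 FPKM in PA + C3G. Ptprc, which marks leukocytes, was at 0 in 8 of the 9 libraries, and the tested one, Sox9, which marks duct and progenitor cells, was higher in PA (log2 fold change 0.94) and lower in PA + C3G against PA (-0.47, lost without PA replicate 2 or PA + C3G replicate 1 or 2, edgeR adjusted p up to 0.092). Gcg, the alpha cell hormone gene, was the tested marker of other endocrine cells and was lower in PA (20.5 ± 11.5 FPKM to 3.57 ± 2.34 FPKM, and 13.3 ± 9.14 FPKM in PA + C3G), a call lost without BSA replicate 1 or PA replicate 3 (edgeR adjusted p up to 0.0507). Since FPKM are shares of a library, fewer cells expressing a gene and less RNA per cell cannot be told apart in these bulk samples. The part of these markers in the results below was not tested.

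Of the 70 genes, 59 passed the filter and were tested. The 11 that did not were Abcd2, Acox2, Agxt, Baat, Dao, Ddo, Ehhadh, Far2, Hao1, Pipox and Xdh. Nearest to the limit were Far2 outside it, with a mean of 0.953 FPKM, and Pxmp2 inside it, with 1.02 FPKM. The low genes included several that are abundant in liver or kidney. Ehhadh, the L-bifunctional enzyme of inducible β-oxidation, averaged 0.0853 FPKM, and Acox2, the oxidase of bile acid intermediates, was listed at 0 in every PA library. At the other end were Idh2, an NADP-dependent isocitrate dehydrogenase best known from mitochondria, with a mean of 98.6 FPKM over the 9 libraries, Ech1, a dienoyl-CoA isomerase that handles unsaturated fatty acids, with 78.6 FPKM, and Phyh, the first enzyme of α-oxidation, with 56.6 FPKM.

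**Figure D1:**
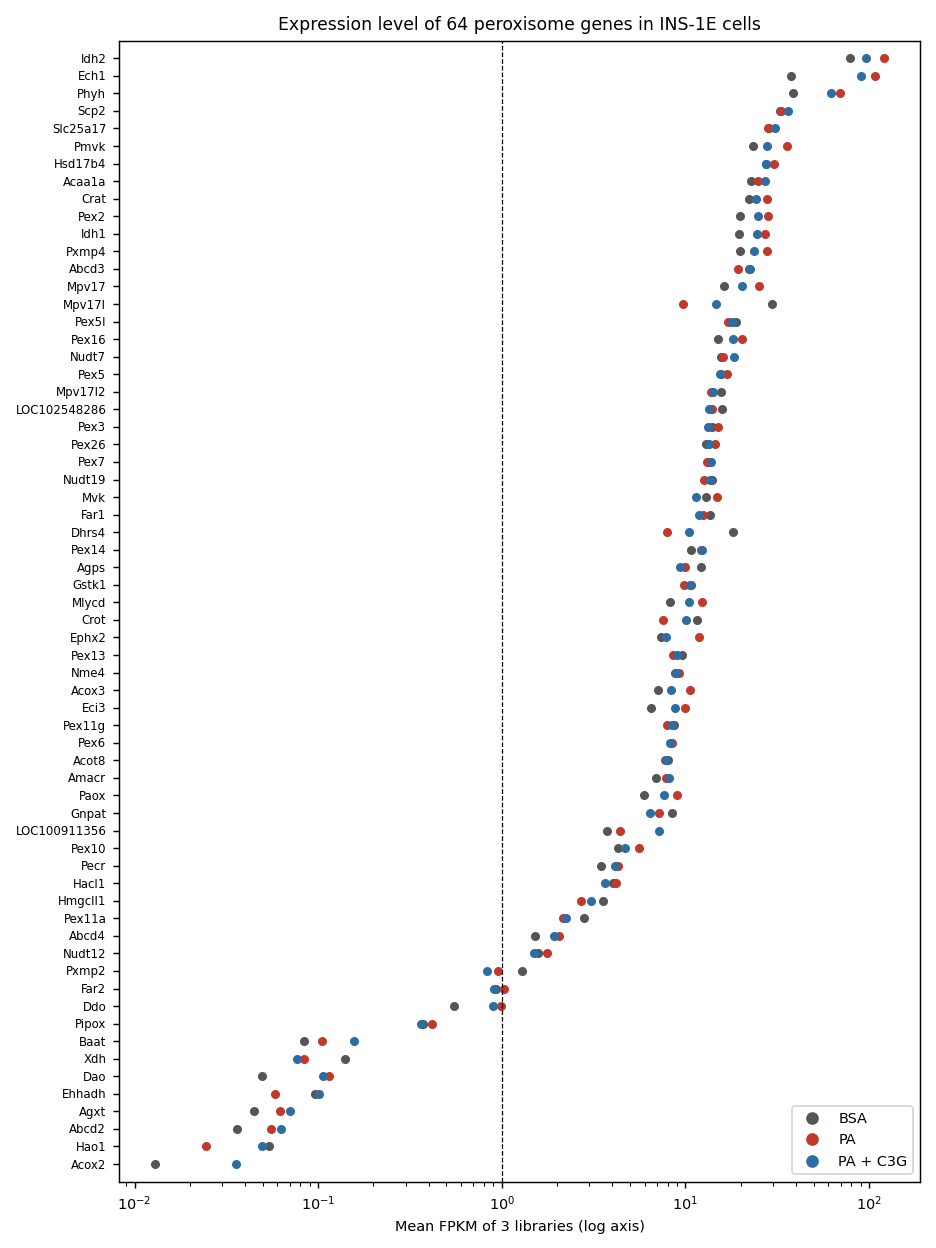
Mean FPKM (log axis) of 64 of the 70 peroxisome genes in BSA, PA and PA + C3G (3 libraries each), ordered by level, with a dashed line at the filter of 1 FPKM. Idh2, Ech1 and Phyh are at the top, 11 genes lie under the filter, and the PA mean of Acox2, which is 0, is not drawn.

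Together the 70 genes reached 859 FPKM, 902 FPKM and 884 FPKM in the BSA libraries, 1069 FPKM, 1074 FPKM and 1097 FPKM in the PA libraries, and 998 FPKM, 1006 FPKM and 999 FPKM in the PA + C3G libraries. The groups did not overlap, with BSA lowest and PA highest. Idh2, Ech1 and Phyh made up 17.0% to 18.4% of the sum in BSA, 27.3% to 27.9% in PA and 24.3% to 25.4% in PA + C3G. Without these 3 genes the sums were 713 to 736 FPKM in BSA, 774 to 797 FPKM in PA and 745 to 756 FPKM in PA + C3G, so the order of the groups stayed and the distance between them narrowed. These sums are of FPKM as deposited, which also shifted over all tested genes. Every PA + C3G library lay below every PA library in 24.0% of all tested genes and above in 15.5%. Whether the sums differ beyond such a general shift was not tested.

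The first comparison asked how palmitic acid changed peroxisome gene expression. In PA against BSA, 22 of the 59 tested genes were higher (37.3%), 6 were lower (10.2%) and 31 did not pass the test (edgeR quasi-likelihood test, Benjamini-Hochberg adjusted p under 0.05 over 12958 genes). Among all tested genes 51.0% passed, 25.8% higher and 25.2% lower. The median log2 fold change was 0.14 for the peroxisome genes and 0.00 for all tested genes. In 26 of the 59 genes every PA library had a higher FPKM than every BSA library, and in 10 every PA library was lower, against 28.0% and 31.8% of all tested genes. Ech1 and Phyh were among the largest increases, and the largest decreases were in Mpv17l, Dhrs4 and Crot.

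**Figure D2:**
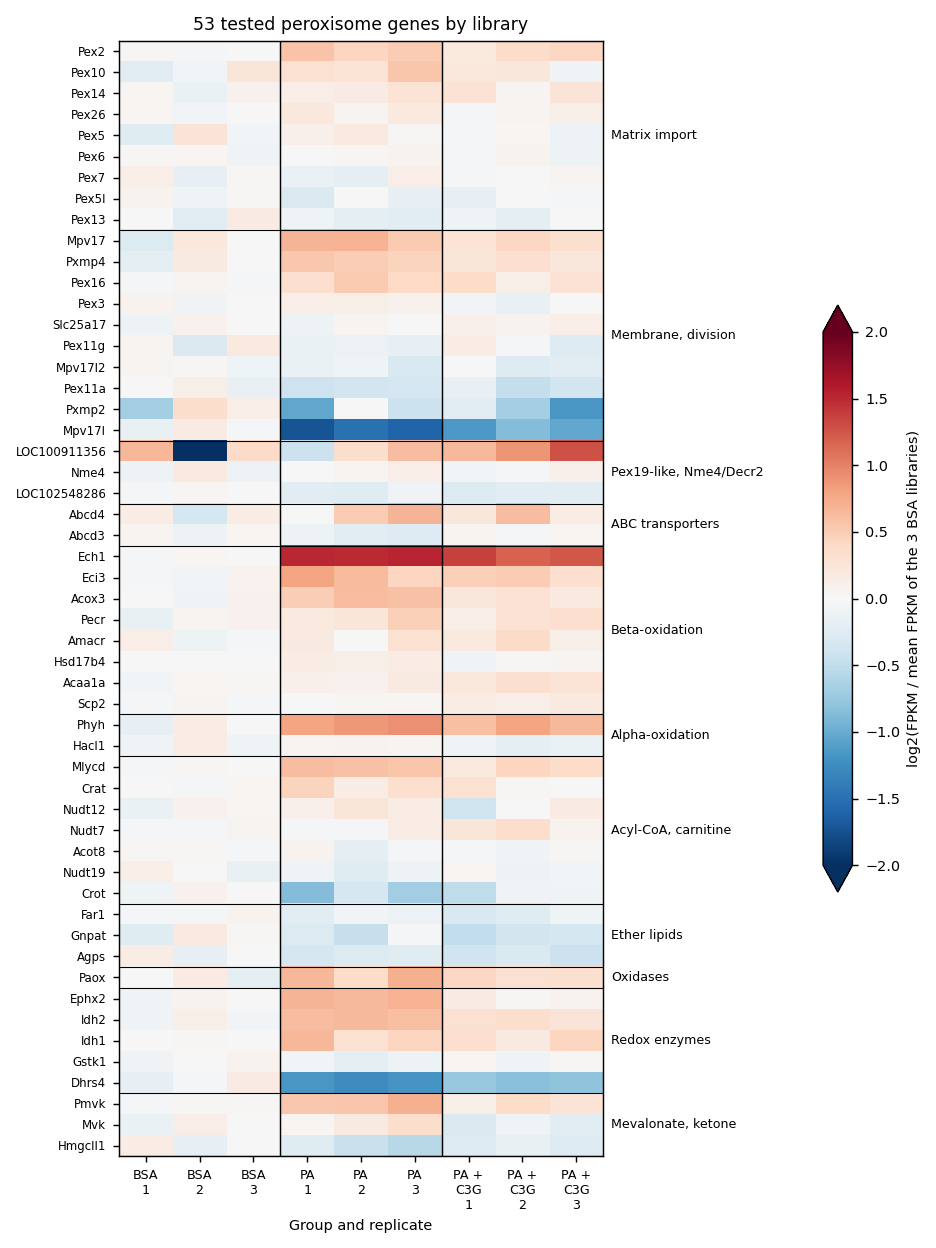
FPKM of 53 of the 59 tested peroxisome genes in each of the 9 libraries, as log2 of the ratio to the gene's BSA mean, grouped by role, with colours limited to 2 in either direction. Ech1 stands out as high in all PA and PA + C3G libraries and Mpv17l and Dhrs4 as low, and BSA replicate 2 of LOC100911356 lies beyond the colour scale.

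Promoter sequences were available from RefSeq (assembly GRCr8) for 55 of the 70 genes, as the 250 bases before and 50 bases after the annotated start. Those of Ech1, Ephx2, LOC100911356, LOC102548286, Mpv17l, Pex2, Pex5l, Pex6 and Pmvk were among the 15 not matched. Shown are the promoters of the 2 higher and the 2 lower genes with the smallest p in PA against BSA among those matched, Phyh and Idh2 (higher) and Dhrs4 and Crot (lower), each 5′ to 3′ on the gene's own strand. Capitals mark the GC box (GGGCGG) and the CCAAT box (CCAAT) on either strand.
Phyh, chr17:78255596-78255895 (-): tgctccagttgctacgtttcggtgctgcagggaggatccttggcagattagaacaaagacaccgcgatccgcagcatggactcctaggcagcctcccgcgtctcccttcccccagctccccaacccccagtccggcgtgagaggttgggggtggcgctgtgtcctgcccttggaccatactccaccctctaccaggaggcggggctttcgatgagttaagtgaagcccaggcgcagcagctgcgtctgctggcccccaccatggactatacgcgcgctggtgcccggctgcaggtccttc
Idh2, chr1:143467199-143467498 (-): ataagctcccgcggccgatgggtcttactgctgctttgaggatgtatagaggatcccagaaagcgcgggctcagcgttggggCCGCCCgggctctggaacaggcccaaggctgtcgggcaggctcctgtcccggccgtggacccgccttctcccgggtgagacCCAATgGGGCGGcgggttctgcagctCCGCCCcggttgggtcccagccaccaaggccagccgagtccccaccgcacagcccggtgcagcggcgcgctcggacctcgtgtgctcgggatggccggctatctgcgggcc
Dhrs4, chr15:32936284-32936583 (+): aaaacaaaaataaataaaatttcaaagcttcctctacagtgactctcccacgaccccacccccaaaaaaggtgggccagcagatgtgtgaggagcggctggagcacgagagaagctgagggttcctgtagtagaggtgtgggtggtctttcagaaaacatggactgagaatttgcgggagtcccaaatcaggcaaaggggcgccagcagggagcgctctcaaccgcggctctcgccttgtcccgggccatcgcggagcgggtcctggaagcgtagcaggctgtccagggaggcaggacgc
Crot, chr4:26052874-26053173 (+): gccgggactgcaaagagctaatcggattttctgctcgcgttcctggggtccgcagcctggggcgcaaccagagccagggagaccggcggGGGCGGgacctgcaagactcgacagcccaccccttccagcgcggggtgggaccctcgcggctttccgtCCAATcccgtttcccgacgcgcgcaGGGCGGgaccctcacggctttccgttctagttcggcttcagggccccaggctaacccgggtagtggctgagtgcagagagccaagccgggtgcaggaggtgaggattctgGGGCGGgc
The windows of Idh2 and Crot each held 1 CCAAT box and 3 GC boxes, and those of Phyh and Dhrs4 held neither, so these letters did not divide the higher from the lower genes. Over the 55 promoters, 38 (69.1%) held GGGCGG against 34.9% of all 27457 promoters in the table, and 24 (43.6%) held CCAAT against 37.7%. The median GC content was 60.0% in the 55 promoters and 52.3% in all. Of the 15 matched genes that were higher in PA, 12 held GGGCGG, as did 20 of the 24 matched genes that did not pass the test. It was in 3 of the 5 matched lower genes and in 3 of the 11 under the filter. The 27457 promoters were not limited to expressed genes. The PPAR response element in its strict form (DR1, a direct repeat of AGGTCA with any 1 base between) was in 0 of the 55 windows and in 0.0583% of all, and a lone or paired half-site AGGTCA was in 9 (16.4%) against 15.7% of all, counting both strands and including any half-site inside the full element. TGACGTCA, the cyclic AMP response element, was in the windows of Acox3, Pex11g and Pex13 (5.45% against 1.91%), and CACGTG, the E-box, in those of Mpv17 and Pecr (3.64% against 6.65%). These matches describe the letters of the windows and not binding.

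In β-oxidation, 6 of 9 tested enzymes were higher in PA and 0 were lower, where 25.8% of all tested genes were higher and 25.2% lower. The counts of this role and of those below are small and were not compared with these shares by a test. Ech1 (ENSRNOG00000020308, chromosome 1, 87009730 to 87016005 in the table's coordinates, genome build not given in the sources used here) measured 37.1 FPKM, 38.5 FPKM and 37.4 FPKM in BSA, 107 FPKM, 106 FPKM and 108 FPKM in PA, and 97.5 FPKM, 85.4 FPKM and 89.5 FPKM in PA + C3G. No BSA library came near the others, and every PA + C3G library was below every PA library. The log2 fold change of Ech1 in PA against BSA was 1.53 ± 0.05 (SE, n = 3 per group, edgeR adjusted p = 3.23e-08), a 2.89-fold increase.

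Acox3, the oxidase of branched-chain substrates, measured 7.09 FPKM, 6.73 FPKM and 7.58 FPKM in BSA, 10.1 FPKM, 11.0 FPKM and 10.7 FPKM in PA, and 8.31 FPKM, 8.70 FPKM and 8.18 FPKM in PA + C3G. The 3 groups of Acox3 were separate, with PA + C3G between the others, and the log2 fold change in PA was 0.59 ± 0.07 (SE, edgeR adjusted p = 9.6e-05).

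Eci3, an enoyl-CoA isomerase, rose from 6.49 ± 0.323 FPKM (SD, n = 3) in BSA to 10.0 ± 1.21 FPKM in PA, a log2 fold change of 0.65. Hsd17b4, the D-bifunctional protein that carries out the middle steps, rose by less, from 27.4 ± 0.268 FPKM to 30.2 ± 0.384 FPKM (log2 fold change 0.16). Acaa1a, the thiolase of the last step, went from 22.7 ± 0.825 FPKM to 24.7 ± 0.948 FPKM with an edgeR adjusted p of 0.0495, and this call was lost when any 1 of the 9 libraries was left out (adjusted p up to 0.178). The call of Acaa1a was also lost with median-ratio size factors, without the filter and with DESeq2. The same held with limma on log2 FPKM (pseudocount 1 or 0.1), with the 2 groups fitted alone and with counts divided by 4. Scp2, whose longer product is the thiolase for branched chains, measured 32.6 ± 1.10 FPKM in BSA and 33.2 ± 0.357 FPKM in PA and did not pass the test. Neither did Amacr, the racemase of branched-chain acyl-CoA (log2 fold change 0.19), nor Pecr, an enoyl-CoA reductase (0.33, edgeR adjusted p = 0.07). Summed FPKM of the β-oxidation genes ran from 170 to 176 in BSA, from 262 to 272 in PA and from 239 to 250 in PA + C3G.

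In α-oxidation, which removes 1 carbon from phytanic acid and similar branched acids, Phyh rose and Hacl1 did not pass the test. Phyh, phytanoyl-CoA hydroxylase (ENSRNOG00000018044), measured 34.2 FPKM, 42.6 FPKM and 38.5 FPKM in BSA, 66.2 FPKM, 70.2 FPKM and 72.4 FPKM in PA, and 58.6 FPKM, 66.4 FPKM and 60.4 FPKM in PA + C3G. PA and PA + C3G overlapped, and both lay above BSA. The log2 fold change in PA was 0.88 ± 0.08 (SE, edgeR adjusted p = 1.33e-05), a 1.84-fold increase. Hacl1, the lyase of the next step, measured 4.02 ± 0.366 FPKM in BSA and 4.19 ± 0.0332 FPKM in PA.

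Fatty acids enter the organelle through transporters of the Abcd family, of which 3 of 4 were tested. Abcd3, the most abundant, measured 23.1 FPKM, 20.7 FPKM and 22.8 FPKM in BSA, 20.6 FPKM, 19.2 FPKM and 18.6 FPKM in PA, and 23.0 FPKM, 21.6 FPKM and 22.9 FPKM in PA + C3G. PA was lowest, with its highest library close under the lowest BSA library, and the log2 fold change in PA was -0.16 ± 0.06 (SE, edgeR adjusted p = 0.0366). The call was lost without BSA replicate 1 or 3 or PA replicate 2 or 3 (adjusted p up to 0.13). It was also lost with every library set to the same FPKM sum and with the 2 groups fitted alone. Abcd4, a transporter of vitamin B12 found in lysosomes, did not pass (log2 fold change 0.44 ± 0.23).

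Among the enzymes that handle acyl-CoA and pass shortened chains on, 2 of 7 tested were higher (28.6%, near the 25.8% of all tested genes) and 1 was lower. Mlycd, malonyl-CoA decarboxylase, measured 8.16 FPKM, 8.43 FPKM and 8.22 FPKM in BSA, 12.6 FPKM, 12.3 FPKM and 12.1 FPKM in PA, and 9.49 FPKM, 11.1 FPKM and 10.7 FPKM in PA + C3G. The groups were separate, and the log2 fold change in PA was 0.60 ± 0.07 (SE, edgeR adjusted p = 0.000105). In PA + C3G against PA, Mlycd did not pass (-0.21, edgeR adjusted p = 0.0753). Both carnitine acyltransferases of the organelle passed the test, in opposite directions. Crat, which acts on acetyl groups, rose from 22.2 ± 0.454 FPKM to 27.7 ± 2.77 FPKM (log2 fold change 0.34), whereas Crot, which acts on medium chains, measured 10.9 FPKM, 12.4 FPKM and 11.6 FPKM in BSA, 6.38 FPKM, 9.21 FPKM and 7.15 FPKM in PA, and 8.20 FPKM, 11.1 FPKM and 11.0 FPKM in PA + C3G. Every PA library of Crot was below every BSA library, PA + C3G overlapped with both, and the log2 fold change in PA was -0.59 ± 0.15 (SE, edgeR adjusted p = 0.00903). The thioesterase Acot8 and the diphosphatases Nudt7, Nudt12 and Nudt19, which break down CoA or NADH, did not pass, with log2 fold changes between -0.11 and 0.19.

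Of the redox enzymes, 3 of 5 tested were higher in PA and 1 was lower. Idh2 (ENSRNOG00000013949) measured 74.5 FPKM, 84.9 FPKM and 75.8 FPKM in BSA, 120 FPKM, 123 FPKM and 119 FPKM in PA, and 97.3 FPKM, 99.7 FPKM and 93.3 FPKM in PA + C3G. The 3 groups were separate, and the log2 fold change in PA was 0.65 ± 0.05 (SE, edgeR adjusted p = 7.08e-06). Idh1, its counterpart in cytosol and peroxisomes, rose from 19.6 ± 0.272 FPKM to 27.3 ± 3.43 FPKM (log2 fold change 0.50). Ephx2, soluble epoxide hydrolase, measured 7.03 FPKM, 7.76 FPKM and 7.45 FPKM in BSA, 11.9 FPKM, 11.7 FPKM and 11.9 FPKM in PA, and 8.32 FPKM, 7.50 FPKM and 7.74 FPKM in PA + C3G. PA stood apart while BSA and PA + C3G overlapped, and the log2 fold change in PA was 0.70 ± 0.07 (SE, edgeR adjusted p = 3.43e-05). Gstk1, a glutathione transferase, measured 10.7 ± 0.529 FPKM in BSA and 9.88 ± 0.423 FPKM in PA and did not pass.

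Dhrs4 (ENSRNOG00000018239, chromosome 15, 34155504 to 34167072), a reductase of carbonyl compounds and retinal, measured 16.2 FPKM, 18.0 FPKM and 20.6 FPKM in BSA, 8.19 FPKM, 7.67 FPKM and 8.09 FPKM in PA, and 10.8 FPKM, 10.2 FPKM and 10.5 FPKM in PA + C3G. The groups were separate, with PA lowest. In PA it was 2.25-fold lower than in BSA (log2 fold change -1.17 ± 0.09, SE, edgeR adjusted p = 6.05e-06).

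Paox, which oxidises acetylated polyamines, was the single tested member of the 7 oxidases and amino acid enzymes. It rose from 5.99 ± 0.707 FPKM to 9.02 ± 1.10 FPKM (log2 fold change 0.61 ± 0.12, SE, edgeR adjusted p = 0.00199). Of the others, Ddo, D-aspartate oxidase, had the highest mean, 0.814 FPKM over the 9 libraries, and ranged from 0.367 FPKM to 1.38 FPKM. Dao, D-amino acid oxidase, was listed at 0 in some libraries and reached at most 0.255 FPKM.

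The mevalonate and ketone body enzymes held 2 higher and 1 lower of 4 tested. Hmgcll1, which takes part in ketone body formation, fell by 0.38 on the log2 scale (3.57 ± 0.386 FPKM to 2.69 ± 0.294 FPKM), a call that was lost without BSA replicate 1 or PA replicate 2 or 3 (edgeR adjusted p up to 0.0723). Pmvk, phosphomevalonate kinase, measured 22.8 FPKM, 23.8 FPKM and 23.7 FPKM in BSA, 34.1 FPKM, 34.5 FPKM and 38.3 FPKM in PA, and 25.3 FPKM, 30.1 FPKM and 28.2 FPKM in PA + C3G. Its groups were separate, with a log2 fold change in PA of 0.63 ± 0.07 (SE, edgeR adjusted p = 7.91e-05), and Mvk, the kinase of the step before, did not pass in PA (log2 fold change 0.22).

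Ether lipid synthesis begins in peroxisomes, and 0 of its 3 tested genes were higher in PA. Agps, which forms the ether bond, fell from 12.2 ± 1.30 FPKM to 10.0 ± 0.317 FPKM (log2 fold change -0.26, edgeR adjusted p = 0.0359), a call that was lost when any BSA library but replicate 2, or any PA library, was left out (adjusted p up to 0.123), and also with every library set to the same FPKM sum and without the filter. Gnpat, the acyltransferase before it, had a log2 fold change of -0.22, and Far1, which makes the fatty alcohol, one of -0.11, and neither passed.

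Import of matrix enzymes was represented by 11 genes, all tested. In PA 4 were higher (36.4%, against 25.8% of all tested genes) and 0 were lower. The receptors Pex5 (15.7 ± 2.76 FPKM in BSA, 16.9 ± 1.02 FPKM in PA) and Pex7 (13.7 ± 1.42 FPKM, 13.2 ± 1.57 FPKM), which recognise the 2 kinds of targeting signal, did not pass, and neither did Pex5l, a relative of Pex5. The docking proteins Pex13 and Pex14 did not pass either, with log2 fold changes of -0.14 and 0.21. Pex2, a RING peroxin, which ubiquitinates the receptor so that it can be recycled, measured 20.2 FPKM, 19.5 FPKM and 19.9 FPKM in BSA, 29.6 FPKM, 26.9 FPKM and 28.1 FPKM in PA, and 22.7 FPKM, 25.6 FPKM and 26.3 FPKM in PA + C3G. The groups of Pex2 were separate, and the log2 fold change in PA was 0.53 ± 0.06 (SE, edgeR adjusted p = 7.36e-05). In PA + C3G against PA, Pex2 did not pass (-0.14, edgeR adjusted p = 0.136).

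Pex10, also a RING peroxin, had a log2 fold change of 0.41 ± 0.15 (SE) at an edgeR adjusted p of 0.0497, which did not hold when any BSA or PA library except BSA replicate 3, or PA + C3G replicate 1 or 2, was left out (adjusted p up to 0.165), nor without the filter, with the 2 groups fitted alone or with counts divided by 4. Pex6, an ATPase that extracts the receptor, had a log2 fold change of 0.05 and did not pass. Pex26, its membrane anchor, rose from 13.0 ± 0.447 FPKM to 14.4 ± 0.793 FPKM, and lost its call without BSA replicate 2 or 3 or PA replicate 1 or 3 (edgeR adjusted p up to 0.0858). The call of Pex26 was also lost with limma on log2 FPKM, with a pseudocount of 1 or 0.1.

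Of the 11 membrane and division genes, 3 were higher in PA (27.3%, near the 25.8% of all tested genes) and 1 was lower. Mpv17l (ENSRNOG00000003285, chromosome 10, 3321476 to 3357470), which codes for a membrane protein of the Mpv17 family, measured 26.7 FPKM, 32.9 FPKM and 28.8 FPKM in BSA, 8.91 FPKM, 10.5 FPKM and 9.71 FPKM in PA, and 13.4 FPKM, 16.1 FPKM and 14.4 FPKM in PA + C3G. The 3 groups were separate, with PA lowest. In PA it was 2.98-fold lower than in BSA (log2 fold change -1.57 ± 0.11, SE, edgeR adjusted p = 1.93e-06). Mpv17, the founding member of that family and a protein of the mitochondrial inner membrane, moved the other way, from 16.1 ± 2.69 FPKM to 25.0 ± 1.61 FPKM (log2 fold change 0.66), and Mpv17l2, also mitochondrial, did not pass (-0.15).

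Pex16, which helps insert membrane proteins, rose from 15.2 ± 0.537 FPKM to 20.3 ± 1.24 FPKM (log2 fold change 0.45), and the membrane protein gene Pxmp4 from 19.7 ± 2.56 FPKM to 27.7 ± 0.848 FPKM (0.52). Pex3, the docking partner of Pex19 in the same step, measured 14.0 ± 0.680 FPKM and 15.1 ± 0.277 FPKM and did not pass. Among the Pex11 genes, which elongate the membrane before division, Pex11a missed the threshold (log2 fold change -0.36, edgeR adjusted p = 0.0502), and Pex11g (-0.11) did not pass. Slc25a17, the carrier of CoA and nucleotide cofactors, measured 28.6 ± 1.84 FPKM in BSA and 28.3 ± 1.45 FPKM in PA, and Pxmp2 was too low to measure closely (log2 fold change -0.40 ± 0.37, SE).

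**Figure D3:**
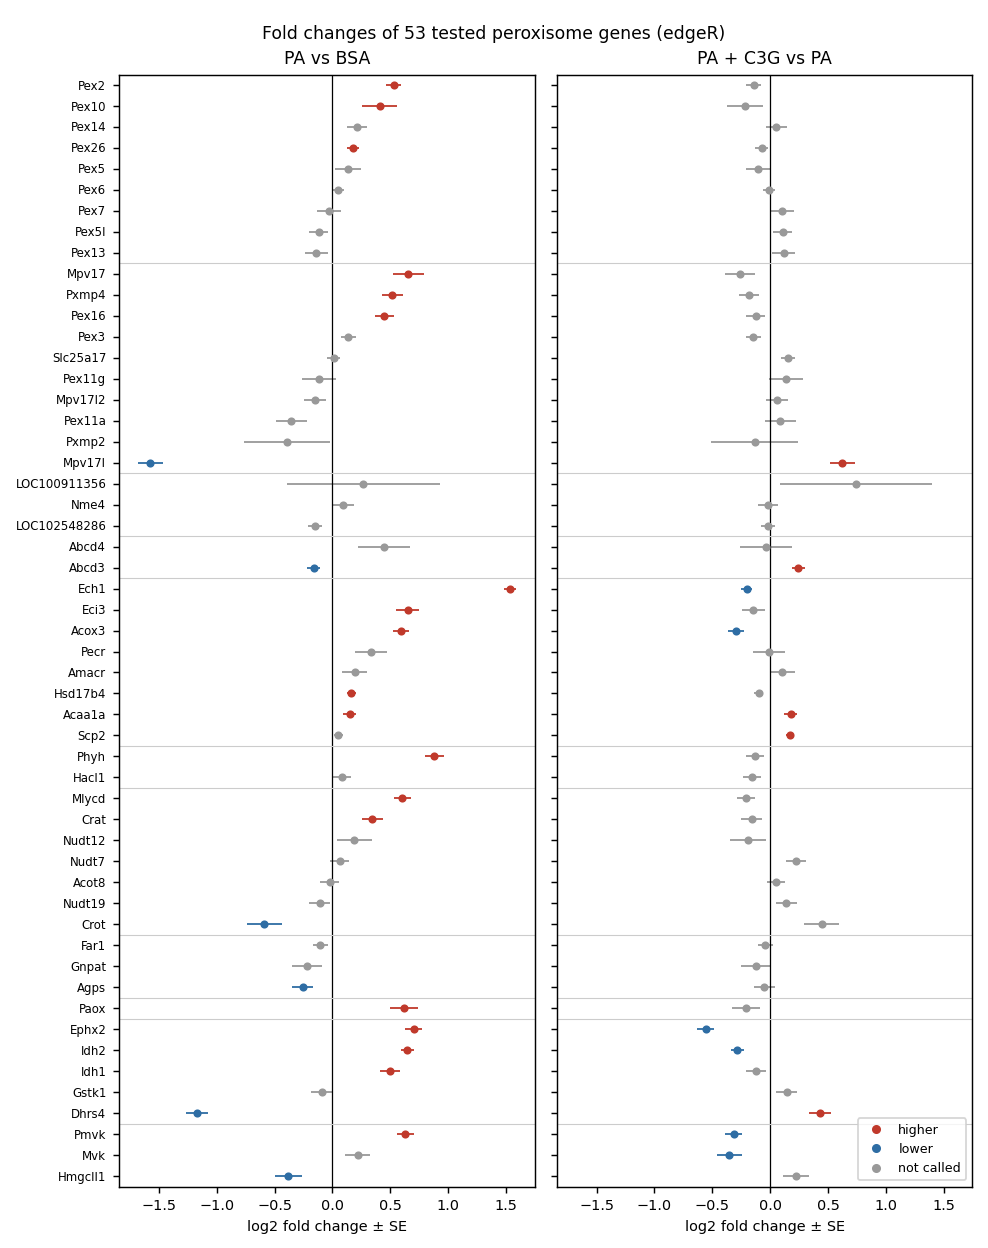
Log2 fold change ± SE (edgeR, 3 libraries per group) of 53 of the 59 tested genes, grouped by role, for PA against BSA (left) and PA + C3G against PA (right), with red for higher, blue for lower and grey for not passing an adjusted p of 0.05. PA against BSA has 19 red and 6 blue points, led by Ech1 (1.53) and Mpv17l (-1.57), and PA + C3G against PA has 5 red and 6 blue points.

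Pex19, the carrier of newly made membrane proteins, was present in the table as LOC102548286 and LOC100911356, both described there as Pex19-like, so reads may have been divided between them. LOC102548286 measured 15.9 ± 0.411 FPKM in BSA, 14.0 ± 0.953 FPKM in PA and 13.5 ± 0.280 FPKM in PA + C3G. LOC100911356 measured 5.89 FPKM, 0.452 FPKM and 4.85 FPKM in BSA, with BSA replicate 2 far below the rest, and all of its 7641 bases lie within Ctif on the same strand. With the estimated counts of both entries summed, the log2 fold change was -0.11 ± 0.07 (SE) in PA against BSA and 0.08 ± 0.07 in PA + C3G against PA, and neither passed (edgeR adjusted p = 0.204 and 0.437). The entry named Nme4 carried the description of Decr2, a dienoyl-CoA reductase, and did not pass in any comparison (8.76 ± 1.13 FPKM in BSA, 9.20 ± 0.404 FPKM in PA).

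The second comparison asked what C3G changed in cells that also received palmitic acid. In PA + C3G against PA, 5 of the 59 tested genes were higher, 6 were lower and 48 did not pass, against 21.2% of all tested genes passing, 11.1% higher and 10.2% lower. The median log2 fold change was -0.02 for the peroxisome genes and 0.00 for all. Every PA + C3G library exceeded every PA library in 7 genes and lay below every PA library in 14, against 15.5% and 24.0% of all tested genes. The split depended on the scaling. With every library set to the same FPKM sum, 2 genes were higher and 13 lower, the median of all genes being -0.09 and that of the peroxisome genes -0.11, and 5.98% of all tested genes were then higher and 19.5% lower. This comparison shares the 3 PA libraries with the first, so the values of both are set side by side for each gene and no relation between them was computed.

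The genes higher in PA + C3G than in PA were Mpv17l, Dhrs4, Abcd3, Acaa1a and Scp2. Mpv17l rose by 0.62 ± 0.11 on the log2 scale (SE, edgeR adjusted p = 0.00352), from 9.71 ± 0.798 FPKM to 14.6 ± 1.40 FPKM, beside 29.5 ± 3.13 FPKM in BSA. Dhrs4 rose by 0.43 ± 0.09 (SE, edgeR adjusted p = 0.0113), from 7.98 ± 0.279 FPKM to 10.5 ± 0.270 FPKM, beside 18.3 ± 2.17 FPKM in BSA. Abcd3 (log2 fold change 0.24), Scp2 (0.17) and Acaa1a (0.18) did not pass under the same-sum scaling. Abcd3 also lost its call without PA replicate 3 or PA + C3G replicate 1 or 3 (edgeR adjusted p up to 0.0607), and Acaa1a without any 1 of the 9 libraries (up to 0.14). Acaa1a lost it as well without the filter, with limma on log2 FPKM, with the 2 groups fitted alone and with counts divided by 4.

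The genes lower in PA + C3G than in PA were Ephx2, Mvk, Pmvk, Acox3, Idh2 and Ech1. Ephx2 had a log2 fold change of -0.56 ± 0.07 (SE, edgeR adjusted p = 0.00105), from 11.8 ± 0.151 FPKM to 7.85 ± 0.420 FPKM, beside 7.41 ± 0.370 FPKM in BSA. Idh2 had one of -0.28 ± 0.05 (SE, edgeR adjusted p = 0.006), from 121 ± 2.30 FPKM to 96.8 ± 3.23 FPKM, beside 78.4 ± 5.64 FPKM in BSA. Ech1 fell from 107 ± 0.954 FPKM to 90.8 ± 6.15 FPKM, a log2 fold change of -0.20, beside 37.7 ± 0.760 FPKM in BSA. That of Ech1 was lost without PA replicate 3 or PA + C3G replicate 3 (edgeR adjusted p up to 0.0612), and that of Acox3 (-0.30) without PA replicate 2 or 3 or PA + C3G replicate 3 (up to 0.0654). Pmvk (-0.32) lost its call without PA replicate 3 (edgeR adjusted p = 0.0588), and Mvk (-0.35) without BSA replicate 3, PA replicate 2 or 3, or PA + C3G replicate 1 or 3 (up to 0.161). Mvk also lost its call without the filter and with the 2 groups fitted alone.

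Other genes with large fold changes in PA against BSA did not pass in PA + C3G against PA. Phyh had a log2 fold change of -0.13 ± 0.08 (SE, edgeR adjusted p = 0.27), with 69.6 ± 3.12 FPKM and 61.8 ± 4.08 FPKM. Crot had one of 0.45 ± 0.15 (SE, edgeR adjusted p = 0.0661), with 7.58 ± 1.47 FPKM and 10.1 ± 1.63 FPKM. By role, 0 of 11 genes of matrix import and 0 of 7 of acyl-CoA handling passed, 2 were higher and 2 lower of 9 in β-oxidation, and 1 was higher and 2 lower of 5 redox enzymes, where 21.2% of all tested genes passed. These small counts were not compared by a test.

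**Figure D4:**
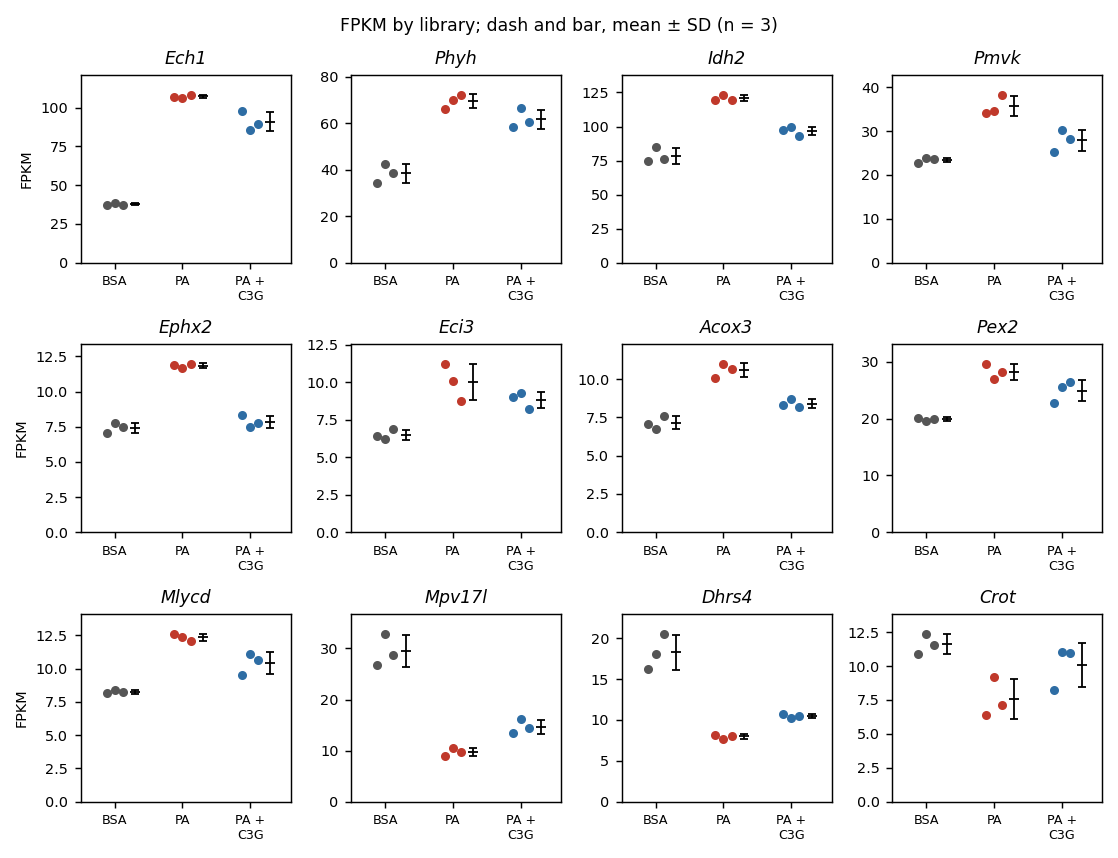
FPKM of 12 peroxisome genes in each library (points; axis from 0), with mean ± SD for BSA, PA and PA + C3G (n = 3). Ech1, Phyh, Idh2, Pmvk, Ephx2, Eci3, Acox3, Pex2 and Mlycd are higher in PA than in BSA, Mpv17l, Dhrs4 and Crot are lower, and every PA + C3G library lies between the BSA and PA libraries for Ech1, Idh2, Pmvk, Acox3, Pex2, Mlycd, Mpv17l and Dhrs4. Of these, Pex2 and Mlycd did not pass in PA + C3G against PA.

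The last comparison set PA + C3G against BSA. Of the 59 tested genes 20 were higher and 4 were lower, against 36.9% of all tested genes passing, 19.0% higher and 17.9% lower, with a median log2 fold change of 0.08 for the peroxisome genes and 0.01 for all. Ech1 had a log2 fold change of 1.33 ± 0.05 (SE, edgeR adjusted p = 2.15e-07), and Phyh (0.75 ± 0.08) and Eci3 (0.50 ± 0.10) were also higher. Ephx2 did not pass (0.15 ± 0.07, edgeR adjusted p = 0.153). The lower genes were Mpv17l (-0.95 ± 0.11, edgeR adjusted p = 8.84e-05), Dhrs4 (-0.74 ± 0.09, adjusted p = 0.00022), Agps (-0.31 ± 0.09, adjusted p = 0.0227) and LOC102548286 (-0.17 ± 0.06, adjusted p = 0.0435). Agps lost its call without BSA replicate 1 or 3 or PA + C3G replicate 1 or 3 (edgeR adjusted p up to 0.0761), and LOC102548286 without any 1 of the 6 libraries compared (up to 0.0937). With both Pex19-like entries summed, the log2 fold change was -0.03 ± 0.07 (SE, edgeR adjusted p = 0.782), and 3 genes were lower. Pex14 (0.27) and Nudt7 (0.28) were among the higher genes, with calls lost without 8 and 5 of the 9 libraries respectively.

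Some of the 70 genes code for proteins that also work in mitochondria. In the table's GO column, 56 of them carry the general term peroxisome and 19 the general term mitochondrion. Narrower terms, such as those for a membrane of the organelle, were not counted. Genes without a general term may thus still belong there, and Mpv17l2, named above as mitochondrial, is counted without one. Of the 18 tested genes with the general term mitochondrion, 9 were higher and 2 lower in PA against BSA, with a median log2 fold change of 0.34. Of the 41 tested genes without it, 13 were higher and 4 lower, with a median of 0.08. Among all tested genes 25.8% were higher and 25.2% lower, with a median log2 fold change of 0.00. The counts in this paragraph were not compared with these shares, or with each other, by a test. The peroxisome entry was the only KEGG entry of 35 of the 70 genes. Among the shared entries, fatty acid degradation held 4 tested genes (Acaa1a, Acox3 and Eci3 among them), all higher in PA, and PPAR signalling held 4 (Acaa1a, Acox3 and Scp2 among them), of which 3 were higher. The genes named here are β-oxidation genes already counted above. Both counts of higher genes include Acaa1a, whose call was lost without any 1 of the 9 libraries and in 7 other settings. The span of 11 of the 70 genes overlapped with another gene of the table, 8 on the opposite strand, Idh2 and Paox among them, and 3 on the same strand. The libraries kept strand, but whether the counting used it is not given in the sources used here, so reads in the shared bases may belong to either gene.

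Related genes outside the 70 were examined in lists, whose counts were not compared by a test. Of all tested genes, 25.8% were higher and 25.2% lower in PA against BSA, and 11.1% and 10.2% in PA + C3G against PA. Of the 10 genes of the KEGG entry that were left out, 7 were higher and 2 lower in PA. Catalase (Cat) measured 17.8 ± 0.879 FPKM in BSA, 27.9 ± 1.21 FPKM in PA and 23.5 ± 0.695 FPKM in PA + C3G (log2 fold change in PA 0.67 ± 0.05, SE, edgeR adjusted p = 4.24e-06). Of 8 genes of organelle division and tethering, 0 were higher and 2 lower in PA. A list for turnover and quality control, not limited to peroxisomes, held 7 genes (Lonp2, Tysnd1, Nbr1, Sqstm1, Usp30, Rnf5 and Marchf5). Of these, 4 were higher and 0 lower in PA, while 0 were higher and 5 lower in PA + C3G against PA. Lonp2, the peroxisomal protease, was among them (log2 fold change 0.27 in PA and -0.23 in PA + C3G against PA, the latter lost without BSA replicate 3, any PA library, or PA + C3G replicate 2 or 3, with edgeR adjusted p up to 0.11).

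The PPAR receptors and their partners held 8 tested genes, 2 higher and 2 lower in PA, where 25.8% of all tested genes were higher and 25.2% lower. Ppara itself lay under the filter, with 0.598 ± 0.0906 FPKM in BSA, 1.17 ± 0.224 FPKM in PA and 0.776 ± 0.212 FPKM in PA + C3G. Ppargc1a, a coactivator of PPARα, measured 1.42 FPKM, 0.791 FPKM and 1.01 FPKM in BSA, 5.21 FPKM, 3.46 FPKM and 4.53 FPKM in PA, and 2.37 FPKM, 2.08 FPKM and 2.22 FPKM in PA + C3G. Its groups were separate, with log2 fold changes of 2.06 ± 0.22 in PA and -0.94 ± 0.22 in PA + C3G against PA (SE), the latter lost without PA replicate 1 (edgeR adjusted p = 0.0502). Of 14 tested targets of PPARα outside the 70 genes, 9 were higher and 3 lower in PA, and Cpt1a, the gate of mitochondrial β-oxidation, was among the higher (13.1 ± 0.461 FPKM to 33.8 ± 2.06 FPKM, and 31.2 ± 2.19 FPKM in PA + C3G). Of 7 tested genes that remove hydrogen peroxide by other routes, 2 were higher and 4 lower in PA.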

How the data were processed

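Polyadenylated RNA of 9 INS-1E libraries, 3 per group, had been sequenced strand-specifically as 150 bp pairs. The submitters' processing notes list cutadapt 1.9, HISAT2 2.0.4, StringTie 1.3.4d, DESeq2 and edgeR. The genome build is not given in the sources used here. The authors deposited estimated counts per gene, not normalized, and FPKM, which the authors scaled to gene length and library size. Low counts pile up at multiples of 4. Totals per library were 45559993 to 66730721.

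Counts were rounded and fitted over all 9 libraries with edgeR 4.0.16 (quasi-likelihood test, TMM factors, R 4.3.3) for the 12958 genes with a mean of at least 1 FPKM. P-values were adjusted by Benjamini-Hochberg over these genes and called under 0.05. The SE is the absolute log2 fold change divided by the square root of F. The scripts were tested on simulated data. Alternatives used DESeq2 1.42.0, limma 3.58.1, other scalings, filters, pseudocounts (1 and 0.1) and thresholds, each library left out, and a replicate block. Genes were named by a rule on smallest p (8 per direction), fixed representatives of each role, level and the filter, and most remaining members were then added after their values were seen. Some of the 70 genes, counted in every total, are not reported here by name or drawn. The members, the lists and the tests were chosen with earlier results of these data known. GO and KEGG terms are those of the deposited table.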

Additional observations from a re-analysis of the deposited data

How the results depend on the processing

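The calls of 22 of the 28 peroxisome genes that passed in PA against BSA held under every alternative at an adjusted p of 0.05, and so did those of 4 of 11 (Ephx2, Idh2, Mpv17l and Dhrs4) in PA + C3G against PA and 14 of 24 in PA + C3G against BSA. Setting every library to the same FPKM sum gave 2 higher and 13 lower in PA + C3G against PA (3300 of all genes, 25.5%). At an adjusted p of 0.01 there were 18 higher and 3 lower in PA against BSA (4901 of all genes), 1 higher and 2 lower in PA + C3G against PA (1220 of all genes), and 12 higher and 2 lower in PA + C3G against BSA (3095 of all genes). With 1 library left out, PA against BSA gave 19 to 21 higher and 3 to 7 lower (5852 to 6621 of all genes), with 3 lower without BSA replicate 1. PA + C3G against PA then gave 3 to 5 higher and 2 to 7 lower (1718 to 2838 of all genes), with 3 higher, 2 lower and 1718 of all without PA replicate 3 and 3 lower without PA + C3G replicate 3. PA + C3G against BSA gave 13 to 19 higher and 2 to 4 lower (3864 to 4684 of all genes), with 13 higher and 2 lower without BSA replicate 3 and 2 lower without PA + C3G replicate 1. Beyond the smaller number of libraries, the cause was not tested.

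Over all tested genes, deviations of libraries with the same replicate number correlated between -0.0918 and 0.0796. Those with different numbers correlated between -0.0722 and 0.0937. Such values over all genes cannot tell whether libraries of the same number were handled together. Gcg was highest in replicate 1 and lowest in replicate 2 in all 3 groups, and Nkx6-1 the reverse. Mpv17l and Crot, members printed above, had the order of Nkx6-1 in FPKM in all 3 groups. Their calls in PA against BSA were kept with a replicate block. The remaining genes were not searched for such an order. With a replicate block, 22 higher and 5 lower peroxisome genes were called in PA against BSA (6843 of all genes, with Agps and Pex10 among the calls lost), 6 and 6 in PA + C3G against PA (3118), and 21 and 4 in PA + C3G against BSA (5058). Of 2127 values of single genes recomputed, 0 reversed a call, 113 lost and 44 gained one, and 39 changed sign with no call in either fit. Pxmp2 rests on 26 to 85 estimated counts per library. The large SE of LOC100911356 goes with 1 library of 24 counts against up to 396 in the others.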
